A study of Oryza sativa with 6 samples.

Results

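The probes described here are those of 7 rice microRNA families known for roles in nutrient supply and stress, namely miR169, miR393, miR395, miR397, miR398, miR399 and miR408. They were chosen by name, as every probe whose name starts with one of these families, and they came to 171 of the 42418 probes on the array and to 171 of its 510 microRNA probes. Each of the 57 precursors had 3 probes, called Mature, 5'seq and 3'seq in the array design, and each probe was printed in 2 spots. The design does not spell out the region names, and 5'seq and 3'seq are read here as the sequence on either side of the mature microRNA. Of the 171 probes, 15 passed the filter on dim signals and could be tested, and the other 156 are given by their detection and their range of signal.

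RNA was measured in nucellar projection cells of rice (Oryza sativa) seeds taken 3 days after flowering. This maternal tissue passes nutrients from the mother plant to the filial tissues of the developing seed. Its cells were cut from fixed sections by laser capture, and the RNA was amplified in 2 rounds, labelled with Cy3 and hybridised to 1-colour Agilent arrays. There were 3 groups of 2 arrays: wild-type plants of the cultivar ZH11, and A-OsMADS29 line 2 and A-OsMADS29 line 14, both of which the labels call OsMADS29 mutants in the ZH11 background. All plants were grown under the same conditions. OsMADS29 is a MADS-box transcription factor. The labels do not explain the prefix, the change made to the gene, or how many plants or seeds gave a sample, so p-values measure the spread between samples described only as independent biological samples.

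A plant microRNA is cut from a longer precursor transcript, and the mature strand then directs cleavage or reduced translation of messenger RNAs that pair with it. Members of the miR169 family target the NF-YA transcription factors, and miR393 targets the TIR1/AFB auxin receptors. In plants short of sulfate, miR395 rises and acts on ATP sulfurylase and a sulfate transporter. In plants short of phosphate, miR399 rises and lowers PHO2, which restrains phosphate uptake. The copper group consists of miR397, which targets laccases, miR398, which targets copper/zinc superoxide dismutases, and miR408, which targets plantacyanin-type copper proteins and laccases. In Arabidopsis all 3 of these are switched on by the factor SPL7 when copper is short. Primary microRNA transcripts carry a poly(A) tail and mature microRNAs do not. Signal from the mature strand and signal from its precursor cannot be told apart at a Mature probe.

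Each array had 72.9% to 79.8% of all its probes well above background, and no spot was saturated. The arrays of line 14 were on a slide of their own, and the 4 arrays of wild type and line 2 on another, so line 14 and its slide cannot be told apart. The lowest signal of any probe well above background was 44.1 and 46.2 on the line 14 arrays and between 10.6 and 26.6 on the other 4 arrays, so a given signal could be well above background on one slide and not on the other. Wild-type replicate 1 stood apart by its number of dim microRNA probes well above background, as given below. The reference gene table paired a symbol with none of the 19 target loci listed for these microRNAs and none of the 5 marker loci listed, which cover OsMADS29 and the endosperm, so these were not examined here. In samples of this kind, fewer cells of a type and less RNA per cell cannot be told apart.

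Most of these microRNA probes stayed dim in the nucellar projection. A probe counted as detected on an array where at least 0.5 of its spots were well above background. By that measure 64 of the 171 probes (37.4%) were detected on at least 1 array, 10 of them on all 6 arrays, and the rest on no array. Both arrays of wild type detected 13 of them, both arrays of line 2 detected 12 and both arrays of line 14 detected 11. The 15 tested probes are those detected on both arrays of at least 1 group. They make up 8.77% of the 171, against 24.5% of the 339 probes of other microRNAs. The 4 tested Mature probes, 5 tested 5'seq probes and 6 tested 3'seq probes came from 57 probes of each region, and from 11 of the 57 precursors. No precursor had all 3 of its probes among those tested.

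The families differed in how many probes rose above background. All 3 miR408 probes were detected on at least 1 array and 2 were tested. For miR169, 14 of 48 probes were detected on some array and 8 were tested. The miR399 family had 18 of 33 probes detected somewhere and 3 tested. Of the 6 miR393 probes, 3 were detected somewhere and 1 was tested, and of the 6 miR398 probes, 4 were detected somewhere and 1 was tested. None of the 69 miR395 probes was detected on both arrays of any group, although 22 were detected on at least 1 array. The 6 miR397 probes, for precursors on chromosomes 2 and 6, were not detected on any array, and their signals lay between 4.95 and 39.1 with a median of 13.2. A signal that was not well above background gives only an upper limit for these probes, and it does not show that the RNA was absent.

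Detection was not even across the arrays. Wild-type replicate 1 detected 44 of the 171 probes and wild-type replicate 2 detected 16. The line 2 arrays detected 16 and 25, and the line 14 arrays 17 and 16. On wild-type replicate 1, 26 of the 44 detected probes had only 1 of their 2 spots well above background, whereas 7 to 9 probes had a single such spot on each of the other arrays. With both spots required, the counts became 18 and 8 in wild type, 9 and 17 in line 2, and 8 and 8 in line 14. The surplus on wild-type replicate 1 lay in miR395, with 14 probes detected there against 1 to 3 on each other array, and in miR399, with 14 against 2 to 6. Counts for miR169 stayed between 6 and 10 on all arrays. Among the other 339 microRNA probes the share detected was also high on wild-type replicate 1 (35.4%) and line 2 replicate 2 (35.1%), against 18.6% to 25.4% on the remaining arrays. The part of array quality in this surplus was not tested.

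**Figure D1:**
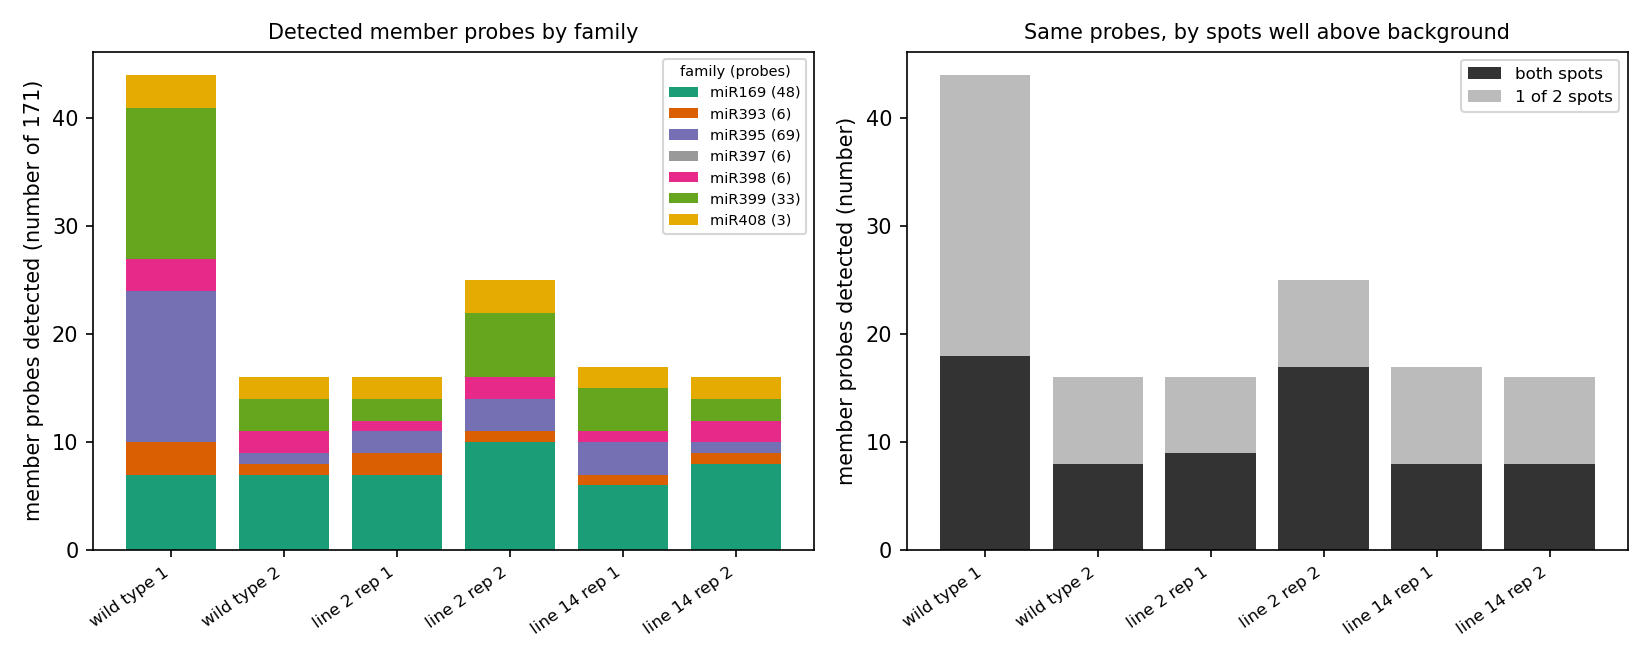
Number of probes of the 7 families detected on each of the 6 arrays, stacked by family (left) and by whether both spots or 1 of 2 spots were well above background (right). Wild-type replicate 1 detected 44 probes, 26 of them on a single spot, and the other arrays detected 16 to 25.

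The miR395 and miR399 probes that were not tested show how little of that surplus was shared. Among the 156 untested probes, 40 were detected on a single array, and 22 of those on wild-type replicate 1 alone. Of these 22, 12 belonged to miR395 and 8 to miR399, 11 were Mature probes, and 1 had both spots well above background. The 69 miR395 probes, from 23 precursors on chromosomes 4, 8 and 9, had signals from 4.55 to 147 with a median of 16.1 over the arrays, and 2 of them were detected on more than 1 array. The 30 untested miR399 probes had signals from 5.15 to 156 with a median of 20.8, and 3 were detected on more than 1 array.

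The log2 values below are the processed signal of a probe relative to the 75th percentile of its array, and they are averaged over 2 spots. A value of -1 means a signal at 0.5 of that percentile. Differences were tested with limma, with p-values adjusted by Benjamini-Hochberg over all 22284 loci and microRNA probes tested and a threshold of 0.05. Probes differ in how they bind, so levels are compared between samples and not between probes.

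**Figure D2:**
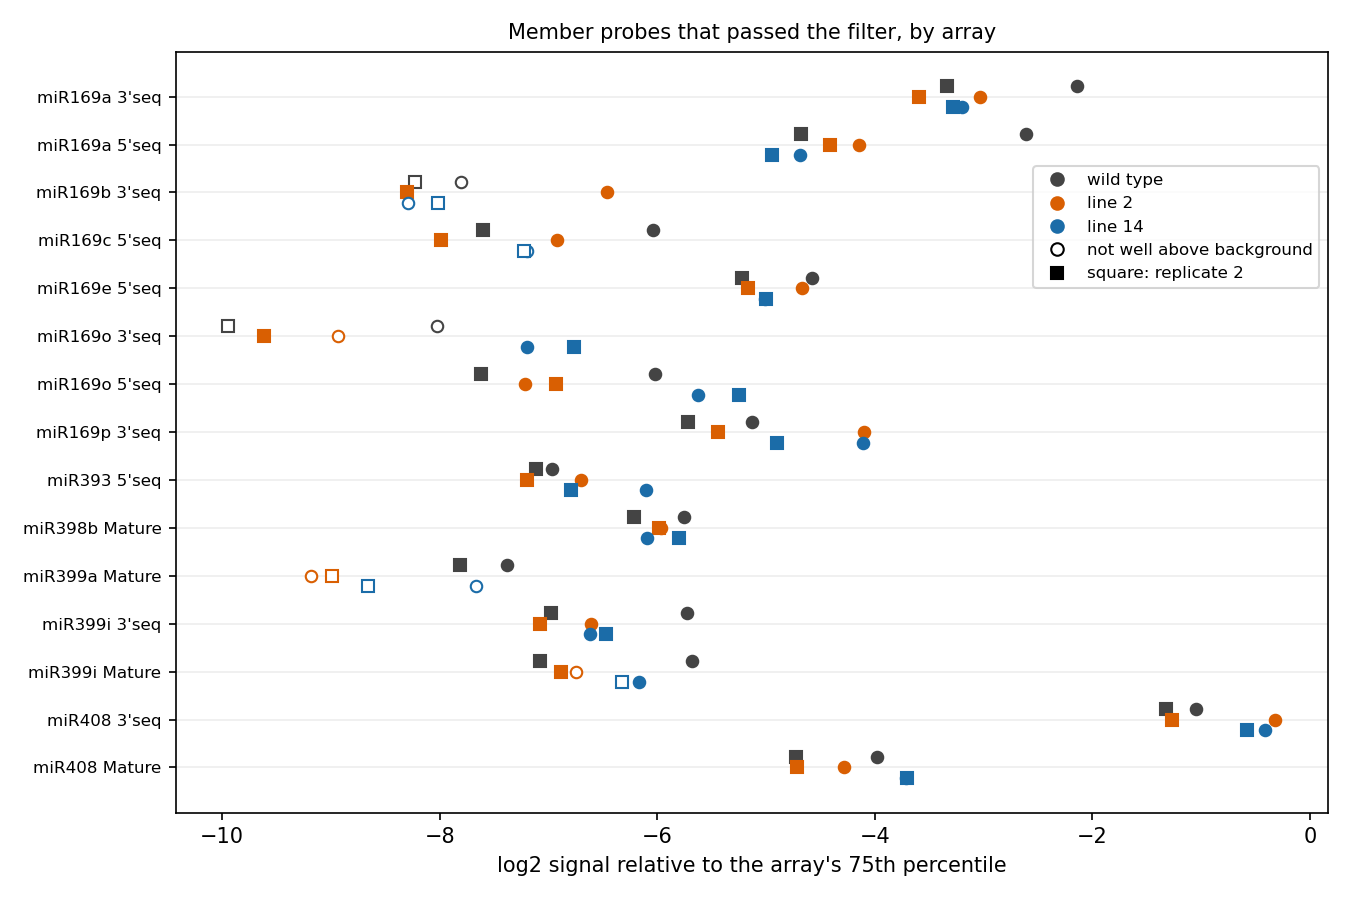
Log2 signal, with 0 at the 75th percentile of each array, for the 15 tested probes on each of the 6 arrays, by group, with circles for replicate 1, squares for replicate 2 and open symbols where the probe was not well above background. Line 2 and wild type overlap at every probe but miR399a Mature. The line 14 arrays lie above the others at miR408 Mature and at both miR169o probes, of which 3'seq was tested only through line 14. Wild-type replicate 1 is the highest array at both miR169a probes.

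None of the 15 probes passed the threshold in any comparison. When both lines were set against wild type, 0 of 15 were called, beside 0.144% of all features, and the smallest adjusted p among the 15 in limma was 0.594. In line 2 against wild type 0 of 15 were called, beside 0.0224% of all features, and in line 14 against wild type 0 of 15, beside 0.0404%. Between line 14 and line 2 the share of all features called was 0%, and no probe of these families was called. At an unadjusted p under 0.05, which carries no correction for the number of tests, 1 probe stood out for the pooled lines (7.91% of all features did), 1 for line 2 (6.4%), 1 for line 14 (7.11%) and 2 for line 14 against line 2 (3.45%). The probes under that level against wild type, miR399a Mature and miR169o 3'seq, had passed the filter only through the group where they were high, so these p-values carry that selection and support no difference. Of the 2 probes for line 14 against line 2, 1 was again miR169o 3'seq, tested only through line 14, so that count carries the same selection. The other was miR169o 5'seq. Among the 10 probes detected on all 6 arrays, 0 lay under an unadjusted p of 0.05 in the comparisons with wild type. The median 95% confidence interval of the 15 reached 1.07 to either side of the pooled difference and 1.23 for a single line, on the log2 scale, so the interval of a single line typically reached past a 2-fold change to either side of its estimate.

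Directions were mixed. The median log2 difference of the 15 probes was 0.02 for the pooled lines against wild type, with 8 higher and 7 lower, beside a median of 0.00 over all features and -0.31 over the 98 tested microRNA probes. It was -0.26 for line 2 against wild type, with 5 higher and 10 lower, and 0.04 for line 14 against wild type, with 8 higher and 7 lower. Both medians stand beside 0.01 over all features, and beside -0.41 for line 2 and -0.18 for line 14 over the 98 tested microRNA probes. Line 14 exceeded line 2 at 12 of the 15 probes with a median of 0.30, beside 0.01 over all features. Over the 98 tested microRNA probes that median was 0.17, with 63 higher in line 14. Dim readings were also higher on the line 14 slide than on the line 2 arrays. Before scaling, the median signal of all 171 probes, most of them dim, was 22.8 and 22.4 on the line 14 arrays. The line 2 arrays had lower medians, 14.5 and 7.57, while the wild-type arrays had 24.3 and 12.3. How much of the excess over line 2 came from such higher dim readings was not tested. All 4 comparisons share arrays with each other, and the directions against wild type rested on single arrays. Without wild-type replicate 1, 14 of the 15 probes were higher in the pooled lines (median 0.42), 14 in line 2 (median 0.26) and 13 in line 14 (median 0.43). Without wild-type replicate 2 these numbers were 4, 4 and 6, with medians of -0.24, -1.06 and -0.35. Without line 2 replicate 1, 0 of 15 were higher in line 2 than in wild type. Line 14 exceeded line 2 at 14 probes without line 2 replicate 1 and at 8 without line 2 replicate 2.

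A simple count of groups whose arrays do not overlap gave the following. For the pooled lines, 0 of 15 probes lay wholly below wild type and 0 wholly above it, beside 8.88% and 7.64% of all features. For line 2, 1 probe (miR399a Mature) lay wholly below wild type and 0 wholly above it, beside 17.5% and 15.1%. For line 14, 1 probe (miR169a 5'seq) lay wholly below wild type, beside 18.1%, and 6 lay wholly above it, beside 17.1%. These 6 were both miR169o probes, miR169p 3'seq, miR393 5'seq and both tested miR408 probes. The filter favoured 2 places in these counts, since miR169o 3'seq was tested only through line 14 and miR399a Mature only through wild type. Line 14 lay wholly below line 2 at 1 probe (miR169a 5'seq), beside 16.1%, and wholly above it at 5, beside 15.4%. Those 5 were both miR169o probes, miR399a Mature, miR399i Mature and miR408 Mature. Among them miR169o 3'seq was tested only through line 14, and miR399a Mature was detected on no array of either line. The miR399i Mature probe was detected on 1 array of each line. Over all 98 tested microRNA probes, line 14 lay wholly below wild type at 17 and wholly above it at 24. It lay wholly below line 2 at 12 of these and wholly above it at 27. Because line 14 was alone on its slide, line and slide cannot be told apart in these counts.

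**Figure D3:**
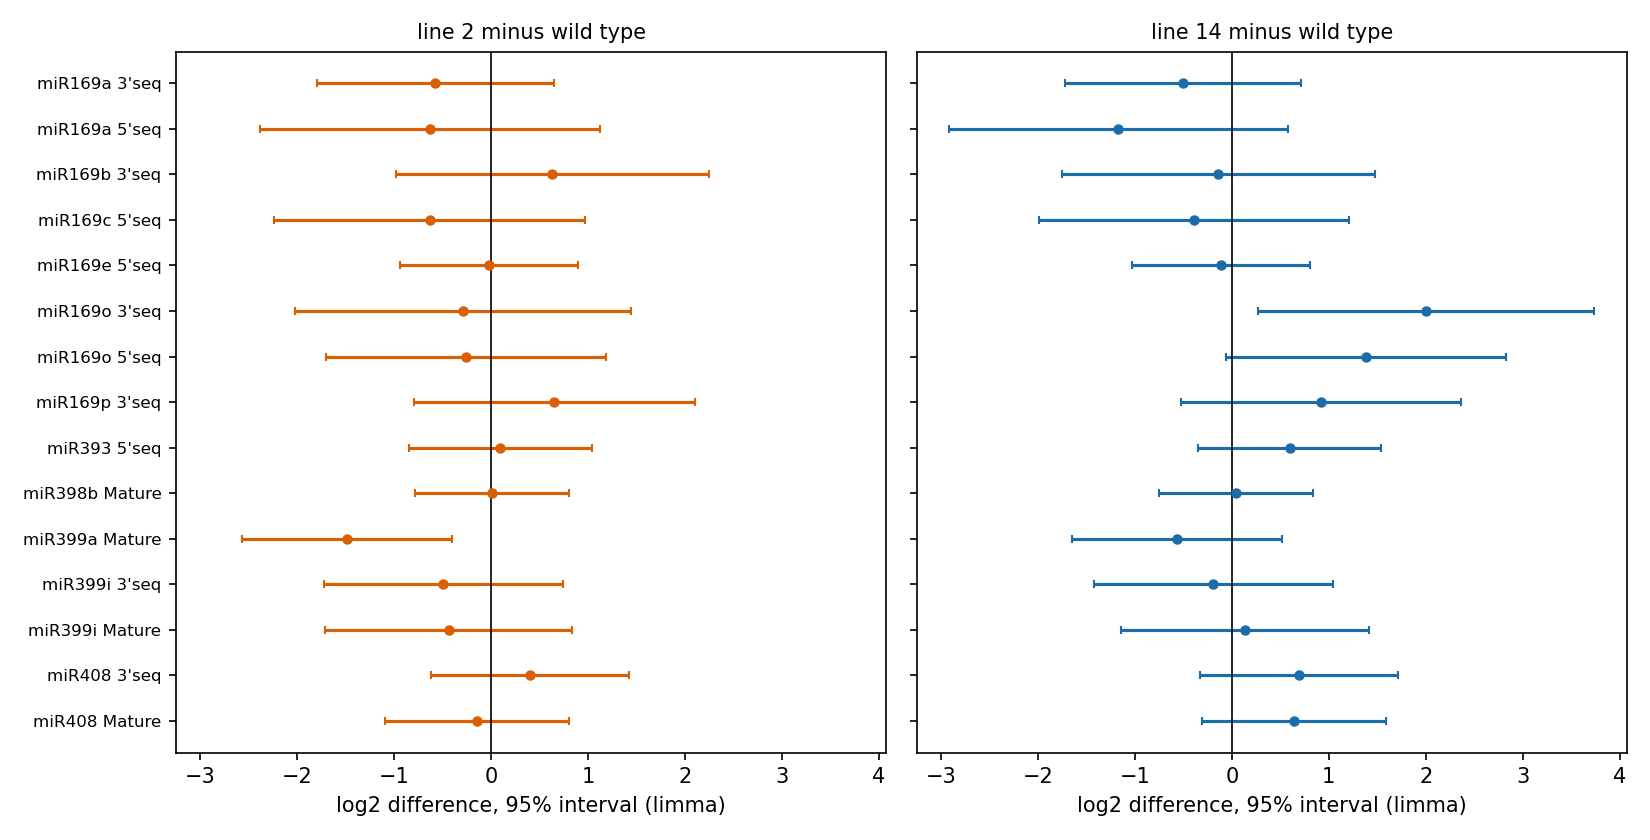
Log2 difference from wild type with its 95% confidence interval from limma, for the 15 tested probes in line 2 (left) and line 14 (right), with a vertical line at 0. The interval leaves out 0 for miR399a Mature in line 2 and for miR169o 3'seq in line 14, but both had passed the filter only through the group where they were high, and neither passes after adjustment over all features.

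In the copper group, miR408 was detected on all 6 arrays by both of its tested probes. Its precursor is assigned to chromosome 1 by the probe name. The miR408 3'seq probe read -1.05 and -1.32 in wild type, -0.32 and -1.26 in line 2, and -0.41 and -0.58 in line 14. Line 14 lay above both wild-type arrays, while the line 2 arrays were split, with replicate 2 at the level of wild type. The corresponding signals were 3351 and 3811 in wild type, 6318 and 3952 in line 2, and 6659 and 6116 in line 14. The difference from wild type was 0.40 in line 2 (SE 0.41, 95% interval -0.62 to 1.42, limma adjusted p = 0.971) and 0.69 in line 14 (SE 0.41, 95% interval -0.33 to 1.71, limma adjusted p = 0.839).

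At the miR408 Mature probe the values were -3.98 and -4.73 in wild type, -4.28 and -4.72 in line 2, and -3.71 and -3.71 in line 14. Here the line 14 arrays were the highest, unlike at 3'seq, where line 2 replicate 1 was. At the Mature probe line 2 fell within the range of wild type. Line 14 differed from wild type by 0.64 (SE 0.38, 95% interval -0.30 to 1.59, limma adjusted p = 0.839), and line 2 by -0.15 (SE 0.38, limma adjusted p = 0.993). Line 14 minus line 2 was 0.79 (95% interval -0.16 to 1.74, unadjusted p = 0.0855, limma adjusted p = 1). The third probe of this precursor, miR408 5'seq, is named to complete it and was chosen after its values were seen. It was detected on wild-type replicate 1 and line 2 replicate 2 alone, with signals of 127 and 84.8, and read between 19.8 and 32.2 on the other arrays.

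For miR398, the single tested probe was miR398b Mature, with its precursor on chromosome 7. It read -5.75 and -6.22 in wild type, -5.96 and -5.99 in line 2, and -6.09 and -5.80 in line 14. All 6 arrays lay within the range of wild type, and all 6 detected it. The pooled difference was 0.02 (SE 0.27, 95% interval -0.66 to 0.71, limma adjusted p = 0.991), the narrowest interval among the 15 probes, and it leaves room for a change of up to about 0.7 either way on the log2 scale. The 5 other miR398 probes had signals from 5.39 to 143, and 2 of them were detected on more than 1 array.

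The phosphate family miR399 held the probe with the smallest p of the pooled comparison. The miR399a Mature probe (precursor on chromosome 1) read -7.38 and -7.82 in wild type, -9.19 and -8.99 in line 2, and -7.66 and -8.66 in line 14. Both wild-type arrays detected it, each in 1 of 2 spots, and none of the 4 line arrays did. It was thus tested only because it was high in wild type, and the values below carry that selection. Both line 2 arrays lay below wild type, and the line 14 arrays straddled the lower wild-type value. The wild-type mean stood at least 2.00-fold above that of line 2. Line 14 replicate 1 read above wild-type replicate 2, so no fold is given for line 14 or the pooled lines. For limits of this kind each array of the dim group was placed at the higher of 2 levels. These were its own reading and the dimmest probe of that array that was well above background. The fitted difference was -1.49 in line 2 (SE 0.43, 95% interval -2.57 to -0.40, unadjusted p = 0.0162, limma adjusted p = 0.553), -0.57 in line 14 (limma adjusted p = 0.883) and -1.03 for the pooled lines (unadjusted p = 0.0373, limma adjusted p = 0.594). After normexp background correction with quantile normalization it was -0.36 in line 2 and -0.29 for the pooled lines. The line 2 value is smaller than the limit given above, which therefore holds for the processed signal alone. That limit also leaves out the spread between arrays, which the 95% interval gives. The unscaled signals were 42.1 and 42.9 in wild type, 13.7 and 18.7 in line 2, and 52.3 and 22.6 in line 14. On line 14 replicate 1 the probe was thus brighter than in wild type before scaling and still not well above background on its slide.

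The miR399i precursor, on chromosome 2, gave 2 tested probes, both highest on wild-type replicate 1. The miR399i 3'seq probe read -5.73 and -6.98 in wild type, -6.61 and -7.08 in line 2, and -6.62 and -6.47 in line 14, and all arrays detected it. The miR399i Mature probe read -5.68 and -7.08 in wild type, -6.75 and -6.89 in line 2, and -6.17 and -6.32 in line 14, and was not detected on line 2 replicate 1 or line 14 replicate 2. The wild-type arrays spanned the values of both lines at each probe, apart from line 2 replicate 2 at the 3'seq probe, which was slightly lower. The pooled differences were -0.35 (SE 0.42, limma adjusted p = 0.908) at 3'seq and -0.15 (SE 0.44, limma adjusted p = 0.968) at Mature.

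In the miR169 family, both tested probes of miR169a, on chromosome 1, were detected on all 6 arrays. The miR169a 3'seq probe read -2.14 and -3.34 in wild type, -3.04 and -3.59 in line 2, and -3.20 and -3.28 in line 14. The miR169a 5'seq probe read -2.61 and -4.68 in wild type, -4.14 and -4.41 in line 2, and -4.69 and -4.94 in line 14. At both probes wild-type replicate 1 was the highest array, with signals of 1573 at 3'seq and 1139 at 5'seq, and wild-type replicate 2 lay close to the lines, with 943 and 373. The pooled difference was -0.54 at 3'seq (SE 0.42, limma adjusted p = 0.849) and -0.90 at 5'seq (SE 0.60, 95% interval -2.42 to 0.61, limma adjusted p = 0.816). Without wild-type replicate 1 these became 0.06 and 0.13, so their sign rested on that array.

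Both tested probes of the miR169o precursor, on chromosome 11, read highest in line 14. The 3'seq probe was tested only through line 14, so it lends no weight to the 5'seq probe. The miR169o 5'seq probe, detected on all arrays, read -6.02 and -7.62 in wild type, -7.22 and -6.93 in line 2, and -5.63 and -5.25 in line 14. Both line 14 arrays lay above all 4 others, and line 2 lay within wild type. Line 14 differed from wild type by 1.38 (SE 0.57, 95% interval -0.07 to 2.83, unadjusted p = 0.0578, limma adjusted p = 0.725) and from line 2 by 1.64 (SE 0.57, 95% interval 0.19 to 3.09, unadjusted p = 0.0329, limma adjusted p = 1). The difference of line 14 from wild type was 0.58 without wild-type replicate 2 and 2.18 without wild-type replicate 1. In line 2 the difference from wild type was -0.26 (limma adjusted p = 0.993). Its signals were 109 and 49.8 in wild type, 57.7 and 78.3 in line 2, and 179 and 248 in line 14.

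The miR169o 3'seq probe was also highest in line 14. It read -8.03 and -9.94 in wild type, -8.94 and -9.62 in line 2, and -7.20 and -6.76 in line 14. Neither wild-type array nor line 2 replicate 1 detected it, and the 3 arrays that did had 1 of 2 spots well above background. It was thus tested only because it was high in line 14, and the values below carry that selection. Line 14 and wild type had group means of -6.98 and -8.99 (fitted difference 2.01, SE 0.69, 95% interval 0.27 to 3.74, unadjusted p = 0.0306, limma adjusted p = 0.634). On each line 14 array 1 of the 2 spots was dim, at 36.6 and 35.9. These spots read below the dimmest probe well above background there (44.1 and 46.2), so no fold is given. Line 14 minus line 2 was 2.30 (95% interval 0.57 to 4.03, unadjusted p = 0.0185, limma adjusted p = 1). After normexp background correction with quantile normalization, which raises dim signals, the difference of line 14 from wild type was smaller, at 0.69.

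**Figure D4:**
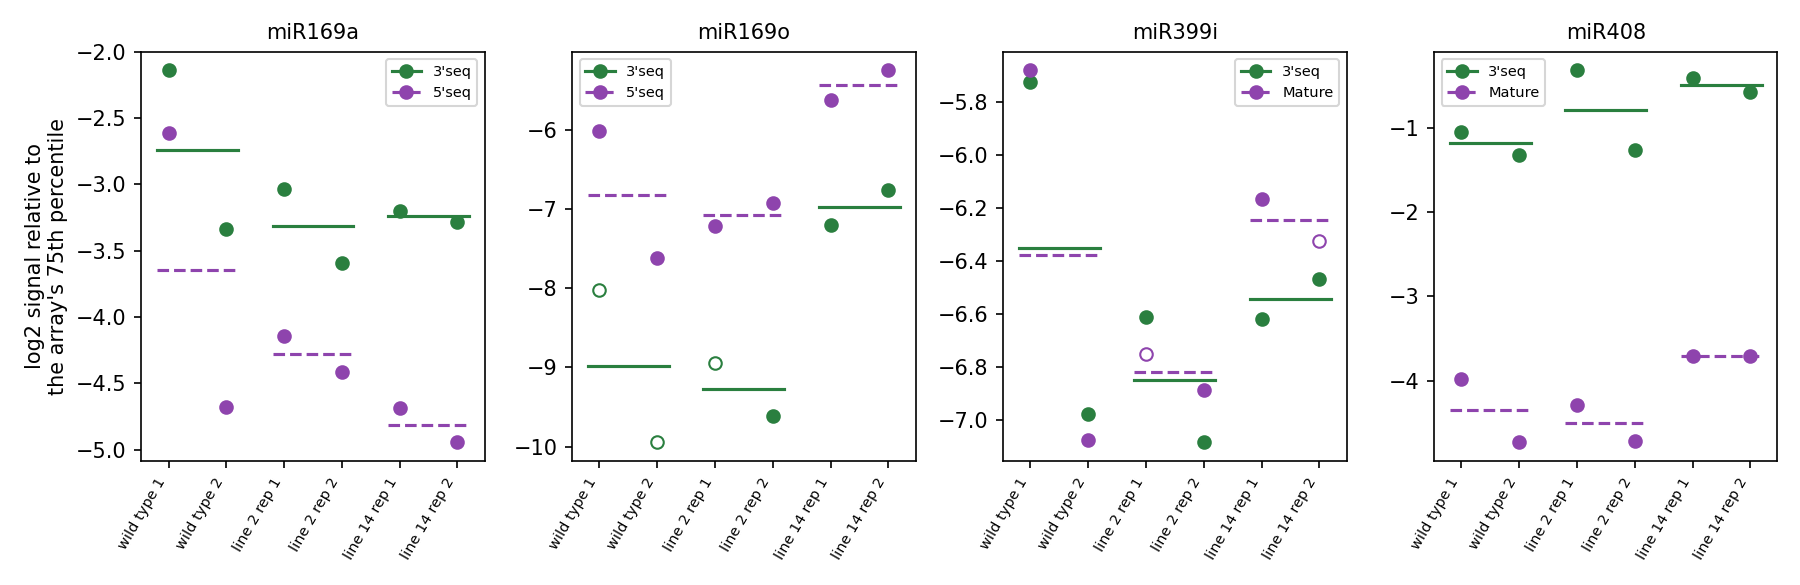
Log2 signal, with 0 at the 75th percentile of each array, on the 6 arrays for the 4 precursors with 2 tested probes, with horizontal lines at group means and open circles where the probe was not well above background. Each panel has its own vertical scale. Both miR169o probes and miR408 Mature are highest in line 14, and both miR169a and both miR399i probes are highest on wild-type replicate 1. The miR169o 3'seq probe was tested only through line 14.

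The other tested miR169 probes overlapped between wild type and line 2. At miR169p 3'seq (chromosome 8) the values were -5.13 and -5.72 in wild type, -4.10 and -5.44 in line 2, and -4.11 and -4.90 in line 14. Line 14 lay above both wild-type arrays, and 1 of 2 line 2 arrays did. The pooled difference was 0.79 (SE 0.50, 95% interval -0.47 to 2.04, limma adjusted p = 0.806).

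The miR169e 5'seq probe (chromosome 2) read -4.58 and -5.22 in wild type, -4.67 and -5.17 in line 2, and -5.01 and -5.01 in line 14, and all line arrays lay within the range of wild type. Its pooled difference was -0.07 (SE 0.32, limma adjusted p = 0.98), and quantile normalization turned it to 0.02.

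At 2 further probes detection set the limit. The miR169c 5'seq probe (chromosome 4) read -6.04 and -7.60 in wild type, -6.92 and -7.99 in line 2, and -7.20 and -7.22 in line 14, and was detected in wild type and line 2 and on neither line 14 array. Its values overlapped between all groups, and wild-type replicate 2 read below both line 14 arrays. The fitted difference of line 14 from wild type was -0.39 (limma adjusted p = 0.939), and without wild-type replicate 1 it was 0.39. The miR169b 3'seq probe (chromosome 6) was detected in line 2 alone, at -6.47 and -8.30, with -7.80 and -8.23 in wild type and -8.29 and -8.01 in line 14. It was tested only through line 2, whose replicate 2 lay below both wild-type arrays although it was detected. The fitted difference of line 2 from wild type was 0.63 (limma adjusted p = 0.97), and without line 2 replicate 1 it was -0.29, so no fold is given.

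The single tested miR393 probe, miR393 5'seq on chromosome 1, read -6.97 and -7.11 in wild type, -6.70 and -7.20 in line 2, and -6.10 and -6.79 in line 14. Line 14 lay above wild type on both arrays, and line 2 lay on either side of it. The difference from wild type was 0.60 in line 14 (SE 0.38, 95% interval -0.35 to 1.54, limma adjusted p = 0.852) and 0.09 in line 2 (SE 0.38, limma adjusted p = 0.996). No miR393 Mature probe was detected on any array.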

How the data were processed

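The arrays carried Agilent design 15241 and were read with Feature Extraction 10.7.3.1, per the file headers. The deposited processed signal is a background-subtracted intensity per spot on a linear scale, not normalized between arrays, and the deposited background flags are scores of 0 or 1 per spot. The authors also deposited log2 values, with a median of 10.4 in every column. Each column had a Pearson's r of at least 0.998 with that array's own spot signals after log2. The values thus keep the direction of those signals across probes and were not centred per gene. This r cannot show whether their scale was kept. No source used here gives the method.

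Control spots, 59 probes that the design names as controls, and outlier spots (0.0983% to 0.183% per array) were left out. Signals were put on the log2 scale, the 75th percentile of the array was subtracted, and the spots of a probe were averaged. A probe was kept where some group detected it, in at least 0.5 of its spots, on each of its 2 arrays, and the brightest kept probe stood for a locus, which gave 22284 features, 98 of them microRNA probes. A model of the 6 arrays with group means was fitted with limma 3.58.1 (R 4.3.3), using empirical Bayes moderation, 3 residual and 2.36 prior degrees of freedom, and Benjamini-Hochberg adjustment at 0.05. Figures were drawn with matplotlib 3.10.9, and the code was tested on simulated data. Precision is limited by how few arrays each group has.

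The families and lists were chosen with earlier results of these data known. All tested probes of the families are named, and the others are given as counts and ranges. Alternatives covered the spot rule and flag, background correction with normexp (offset 50, on the median spot signal, since no mean signal was found), scaling, the authors' table, the filter, probes per locus, an intensity trend, the arrays fitted, replicate and slide blocks, the threshold, and each array left out. Replicate numbers were not used to pair samples in the main fit. Deviations of replicate 1 from its group mean correlated at 0.03 to 0.08 between groups, across 22244 features. Such low values show no strong replicate effect shared across all features. They cannot exclude one in a part of the features, or show whether samples were collected in pairs. Sequences of the probes and mature microRNAs were not used here.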

Additional observations from a re-analysis of the deposited data

Results flagged for a closer look

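At 2 probes the arrays of line 2 and line 14 lay on opposite sides of the wild-type mean. For miR169o 5'seq, the line 2 arrays lay at -0.40 and -0.11 and the line 14 arrays at 1.19 and 1.57 on the log2 scale, and line 14 minus line 2 was 1.64 (unadjusted p = 0.0329, limma adjusted p = 1). For miR399i Mature, the line 2 arrays lay at -0.37 and -0.51 and the line 14 arrays at 0.21 and 0.06, and line 14 minus line 2 was 0.57 (unadjusted p = 0.305, limma adjusted p = 1). The wild-type arrays themselves lay far apart at both probes. At miR169o 5'seq both line 2 arrays lay between them, and at miR399i Mature the arrays of both lines did. The miR399i Mature probe was also not detected on line 2 replicate 1 or line 14 replicate 2. The difference between lines did not pass after adjustment at either probe. Line 14 was alone on its slide, so line and slide cannot be told apart. No group of these data has the 4 arrays that a check for a single array standing apart would need.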

How the results depend on the processing

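No probe of the 7 families was called in any of the 4 comparisons under any alternative fit, the looser threshold of 0.1 and the fit without a filter included. With the replicate number as a block the number called was also 0, and the counts over all features became 1 for the pooled lines (32 without the block), 0 for line 2 (5) and 0 for line 14 (9). Over all alternatives those counts ranged from 0 to 106, 0 to 37 and 0 to 54, and from 0 to 1 for line 14 against line 2. The pooled count was 1 without wild-type replicate 1, 106 without wild-type replicate 2, 0 without either line 2 array, and 2 or 0 without line 14 replicate 1 or 2. Of 1075 single differences under the alternatives, none called, 63 had the other sign, 20 of them without wild-type replicate 1. With each array left out, or under another setting, the median difference of the 15 probes ran from -0.24 to 0.42 for the pooled lines, -1.06 to 0.26 for line 2 and -0.35 to 0.43 for line 14, so each took both signs, with the lowest value without wild-type replicate 2 and the highest without wild-type replicate 1. The miR169o 3'seq difference in line 2 went from -0.29 to 0.39 in the authors' deposited table. A slide block could be fitted for line 2 against wild type alone.

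Detection depended on its rule. With every spot required, 7 probes were detected in wild type, 8 in line 2, 7 in line 14 and 9 in at least 1 group, against 13, 12, 11 and 15. With the looser flag for a positive and significant signal the counts were 71, 47, 43 and 91, and with 1 array of a group enough they were 47, 29, 22 and 64. Leaving out each array in turn gave 13 to 44 in wild type (44 without replicate 2), 12 to 25 in line 2 (25 without replicate 1), 11 to 17 in line 14 (17 without replicate 2) and 18 to 46 in at least 1 group (46 without wild-type replicate 2). With 1 array left in a group, detection there rests on that array. Signals near background limit miR395, miR397 and most Mature probes.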

Other observations

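The spots behind the surplus of detected probes on wild-type replicate 1 were not spread evenly over the array, an examination chosen after the data were seen. Of the 26 probes of these families with a single spot well above background on that array, 10 (38.5%) had that spot in the outermost 3 columns on either side, where 31 of the 342 spots of these families lie (9.06%). On the other arrays 0 to 2 such spots lay there, of 7 to 9. The 2 spots of the 156 untested probes differed by a median of 0.52 on the log2 scale on wild-type replicate 1, against 0.20 to 0.42 on the other arrays. For the 15 tested probes that median was 0.22 on wild-type replicate 1 and 0.25 to 0.46 elsewhere.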
